A study of Mus musculus with 6 samples.

Results

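The striatum of young mice whose sires had received methylphenidate or saline was examined for 47 imprinted genes. The genes were listed by symbol, and all 47 had a row in the table of 45777 genes. Of these, 45 had enough reads to be tested, and H19 and Phlda2 did not. The animals were ICR mice, an outbred strain, sampled at 6 weeks of age. No genetic change is named in the labels, and the dams were not treated. In the methylphenidate-sired group the sires, 6 weeks old when dosing began, had 15 mg/kg methylphenidate, a blocker of dopamine and noradrenaline uptake, under the skin for 21 days before mating. In the saline-sired group they had 10 mL/kg saline by the same scheme. Each group had 3 offspring, 2 females and 1 male. How many sires and litters they came from is not stated in the labels. The p-values therefore cover only the spread between these offspring, some of which may be littermates.

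Imprinted genes are expressed mainly from the allele of 1 parent, because sperm and egg pass on different DNA methylation at control regions. A paternally expressed gene in these offspring is read from the chromosome that came from the treated or control sire, and a maternally expressed gene from the untreated dam. Many imprinted genes act in growth, feeding and maternal care, and the brain expresses a large number of them. By textbook knowledge, 25 of the genes were grouped as paternally expressed and 19 as maternally expressed. For Grb10, Gnas and Inpp5f the expressed allele depends on the tissue or the transcript. Read counts do not tell the alleles apart, so no parental allele was measured.

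The libraries are named by group and column number, 3, 4 and 5 for saline and 2, 4 and 6 for methylphenidate. Total counts ran from 31360042 to 38844724 per library, and levels are given as counts scaled to library size (CPM). All 12 medium spiny neuron markers, the projection neuron genes of the striatum, had counts in all 6 libraries. Their summed level was 9507 to 10316 CPM in saline-sired and 8116 to 9053 CPM in methylphenidate-sired libraries. Saline-sired library 3 stood apart by choroid plexus RNA. The 12 markers of that secretory epithelium summed to 3138 CPM there, 892 in saline-sired library 4 and 221 to 366 in the other 4 libraries. In those 4 libraries a single marker, Enpp2, gave 189 to 303 CPM, so the lower sums rest mainly on that gene. Summed cortical excitatory neuron markers, 12 of 12 with counts in each library, were 465 to 966 CPM in saline-sired and 1163 to 1337 CPM in methylphenidate-sired libraries. These are bulk samples, in which fewer cells of a type and less RNA per cell cannot be told apart.

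Promoter sequences are shown for genes of which the levels are compared below, because they show which members share a start and which carry the motif of an imprint-keeping factor. ZFP57, a zinc finger protein, binds the methylated hexanucleotide TGCCGC at imprinting control regions. The windows, from RefSeq (GRCm38.p6), run from 250 bases before to 50 after an annotated start. TGCCGC or its reverse complement GCGGCA is in capitals. Snrpn and Snurf share the window at chr7:60005150-60005449 (minus strand), with 1 match. The windows of Peg3 (chr7:6730370-6730669, minus strand) and of Usp29 on the plus strand overlap by 263 bases and hold no match. Nap1l5 (chr6:58907077-58907376, minus strand) has 2 matches, the downstream Mest window (chr6:30737800-30738099, plus strand) has 2 and the upstream Zdbf2 window (chr1:63200108-63200407, plus strand) has 3.
Snrpn and Snurf: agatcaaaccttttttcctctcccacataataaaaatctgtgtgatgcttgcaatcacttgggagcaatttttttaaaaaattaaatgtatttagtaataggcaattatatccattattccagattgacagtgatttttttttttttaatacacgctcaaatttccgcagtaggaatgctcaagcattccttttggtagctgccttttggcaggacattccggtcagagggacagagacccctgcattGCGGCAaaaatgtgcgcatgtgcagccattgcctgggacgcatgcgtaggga
Peg3: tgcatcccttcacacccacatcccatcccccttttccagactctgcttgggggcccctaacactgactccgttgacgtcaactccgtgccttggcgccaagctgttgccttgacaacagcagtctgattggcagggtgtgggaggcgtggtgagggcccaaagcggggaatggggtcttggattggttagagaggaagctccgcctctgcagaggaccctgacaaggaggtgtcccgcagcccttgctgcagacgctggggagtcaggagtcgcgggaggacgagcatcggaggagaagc
Nap1l5: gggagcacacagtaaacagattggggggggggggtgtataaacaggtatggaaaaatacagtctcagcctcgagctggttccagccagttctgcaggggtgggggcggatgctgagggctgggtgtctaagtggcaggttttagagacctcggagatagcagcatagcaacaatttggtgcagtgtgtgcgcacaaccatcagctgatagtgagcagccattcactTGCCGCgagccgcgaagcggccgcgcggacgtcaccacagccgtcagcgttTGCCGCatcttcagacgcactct
Mest: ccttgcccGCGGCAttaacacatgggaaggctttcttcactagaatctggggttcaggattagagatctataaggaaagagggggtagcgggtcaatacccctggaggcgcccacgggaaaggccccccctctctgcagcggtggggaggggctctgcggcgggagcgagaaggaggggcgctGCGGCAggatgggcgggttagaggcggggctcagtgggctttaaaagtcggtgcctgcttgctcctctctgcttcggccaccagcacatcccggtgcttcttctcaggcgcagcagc
Zdbf2: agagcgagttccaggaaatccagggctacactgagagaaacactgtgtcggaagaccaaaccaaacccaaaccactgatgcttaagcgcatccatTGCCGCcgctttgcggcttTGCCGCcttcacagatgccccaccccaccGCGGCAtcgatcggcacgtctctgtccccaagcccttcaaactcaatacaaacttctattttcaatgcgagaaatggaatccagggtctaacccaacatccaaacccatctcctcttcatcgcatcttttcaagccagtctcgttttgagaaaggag
Of 38 members with a promoter window, 15 held the motif on either strand in at least 1 window (39.5%), against 13.1% of 27025 genes. The counts were 9 of 20 for paternally expressed members and 5 of 15 for maternally expressed ones. Snrpn and Snurf both count through their shared window, and a gene with more windows has more chances of a match. Member windows were also richer in CG, with a median of 17 such pairs in a gene's richest window against 8 over all genes. The motif itself holds a CG, and the shares were not matched for CG or for the number of windows. A match describes the letters and is not a binding site.

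Levels were compared between genes per kilobase of exon, from exon lengths of GENCODE M21. Snurf was left out of this order, because its annotated exons there are 216 bases of a longer shared transcript. The counts are for RefSeq genes, whose exons can differ in length. For Ndn the 3694 bases used exceed its whole RefSeq span (62348277 to 62349928), so its level per kilobase may be too low here. The lengths used for Kcnq1ot1 (93092 bases), Dio3 (2030) and Mcts2 (912) also exceed their RefSeq spans. Meg3, a long noncoding RNA of the maternal chromosome, was the highest at 142 ± 16.5 CPM per kilobase (SD, n = 6). Next were Nap1l5, a nucleosome assembly protein-like gene, at 116 ± 11.4, and Snrpn, which encodes a small nuclear ribonucleoprotein, at 113 ± 12.7. These 2 do not differ beyond their spread. Peg13, a noncoding RNA, followed at 61.5 ± 3.95. Then came Ppp1r9a (neurabin, an actin-binding scaffold of spines) at 51.6 ± 3.92, Gnas at 51.1 ± 5.32, Impact at 48.4 ± 2.46, Ndn (necdin) at 43.5 ± 2.42 and Nnat (neuronatin) at 40.8 ± 6.18. Ppp1r9a, Gnas and Impact lie within their spread. The place of Ndn in this order is uncertain because of the length used. Peg3, a zinc finger gene, was lower at 30.8 ± 2.49. At the other end, the mean level per kilobase was 0.205 for Kcnq1ot1, 0.195 for Dio3, 0.151 for Slc22a18, 0.110 for Asb4 and 0.0778 for Airn. Of the 10 highest members, 7 are paternally expressed and 2 maternally expressed, where the 47 members hold 25 and 19. Whether the highest members differ from the list in this was not tested.

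**Figure D1:**
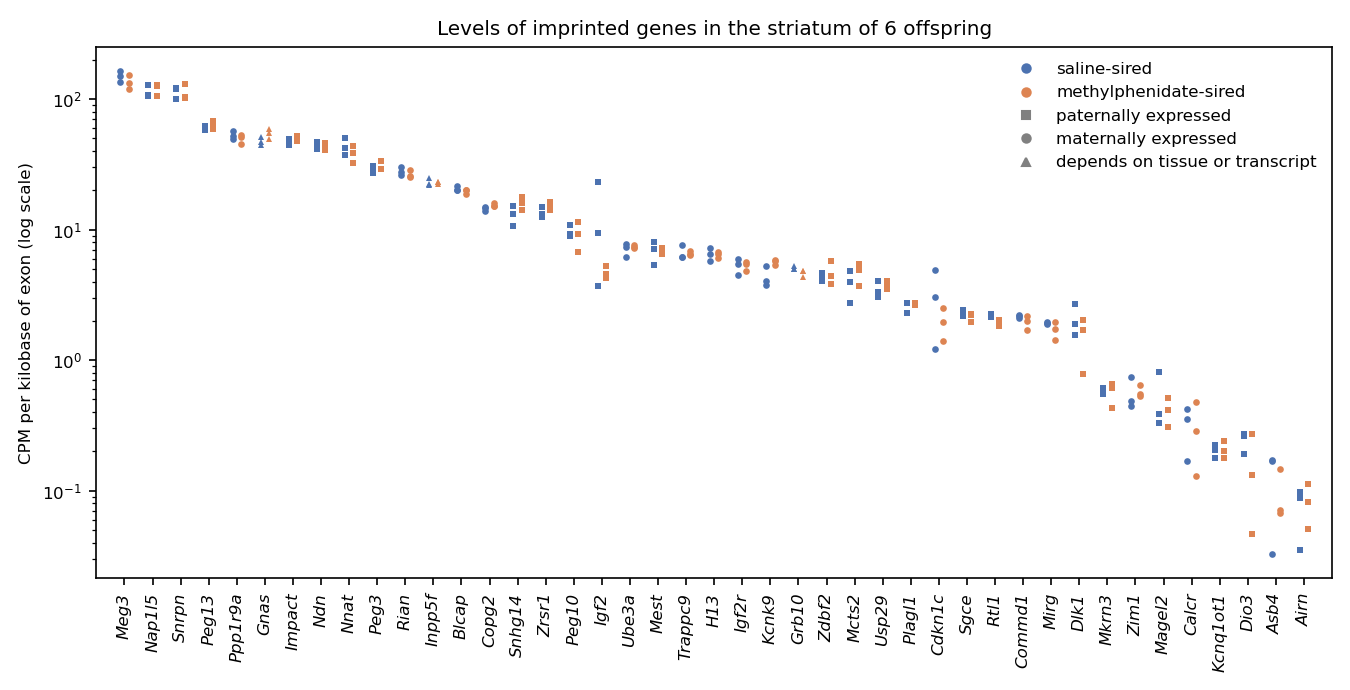
Levels of 43 imprinted genes as CPM per kilobase of exon on a log axis, one point per library, by group (colour) and expressed allele (shape). By their mean, Meg3 is highest (119 to 164) and Airn lowest (0.0350 to 0.113), and Igf2 and Cdkn1c show the saline-sired libraries spread widely. Snurf and Slc22a18 are not drawn, nor are H19 and Phlda2.

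The comparison asked whether imprinted genes differ in the striatum with the sire's treatment. None of the 45 tested members passed the edgeR quasi-likelihood test with Benjamini-Hochberg adjustment over 17874 genes (smallest adjusted p = 0.470), where 4 genes, 0.0224%, did. At an unadjusted p under 0.05 there were 4 members, Kcnk9, Gnas and Snhg14 with higher values and Igf2 with lower ones. That is 8.89% of those tested, against 9.02% of all genes (5.07% with higher and 3.95% with lower values). In 4 members, Kcnk9 and Copg2 with higher and Rtl1 and Grb10 with lower values, the groups did not overlap (8.89%). Over all genes this share was 14.8% (7.83% higher and 7.01% lower). Neither share of members exceeded that of all genes. DESeq2, which gave 40 of the 45 an adjusted p, and limma-voom called 0 members as well. At an unadjusted p under 0.05 each had 3 members, Igf2 being lost in both, where all genes stood at 8.53% and 9.23%.

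By expressed allele, the genes grouped as paternally expressed were centred on zero. The classes hold Igf2 and Igf2r too, for which reading from both alleles is described below. Of 25 paternally expressed members, 12 had positive and 13 negative log2 fold changes (methylphenidate-sired minus saline-sired), with a median of -0.0013. Of 17 maternally expressed members tested, 5 were positive and 12 negative, with a median of -0.07. The median of all genes tested was -0.01. Without saline-sired library 3, which held the most choroid plexus RNA, the medians were 0.02 and -0.05. In that fit 3 members had an unadjusted p under 0.05, against 6.88% of all genes. Igf2 and Kcnk9 were no longer among them, and Snurf was. On leaving out each library in turn, 19 members turned in sign and 23 kept it but moved by over 1.5 times. Kcnk9, Gnas and Rtl1 stayed within that. On simulated counts made for this comparison over 17505 genes, the test recovered 37.3% of those given a log2 change of 0.5, 64.2% of those given 1 and 97% of those given 2. The changes were given to 67, 67 and 66 genes, all with a mean above 1 CPM, and 7 unchanged genes were called. More genes were changed there than passed in the data, which eases the adjusted threshold. A change of 0.5 or less could thus often be missed at this number of animals, and a change of 1 less often. Recovery for members of lower level was not simulated.

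**Figure D2:**
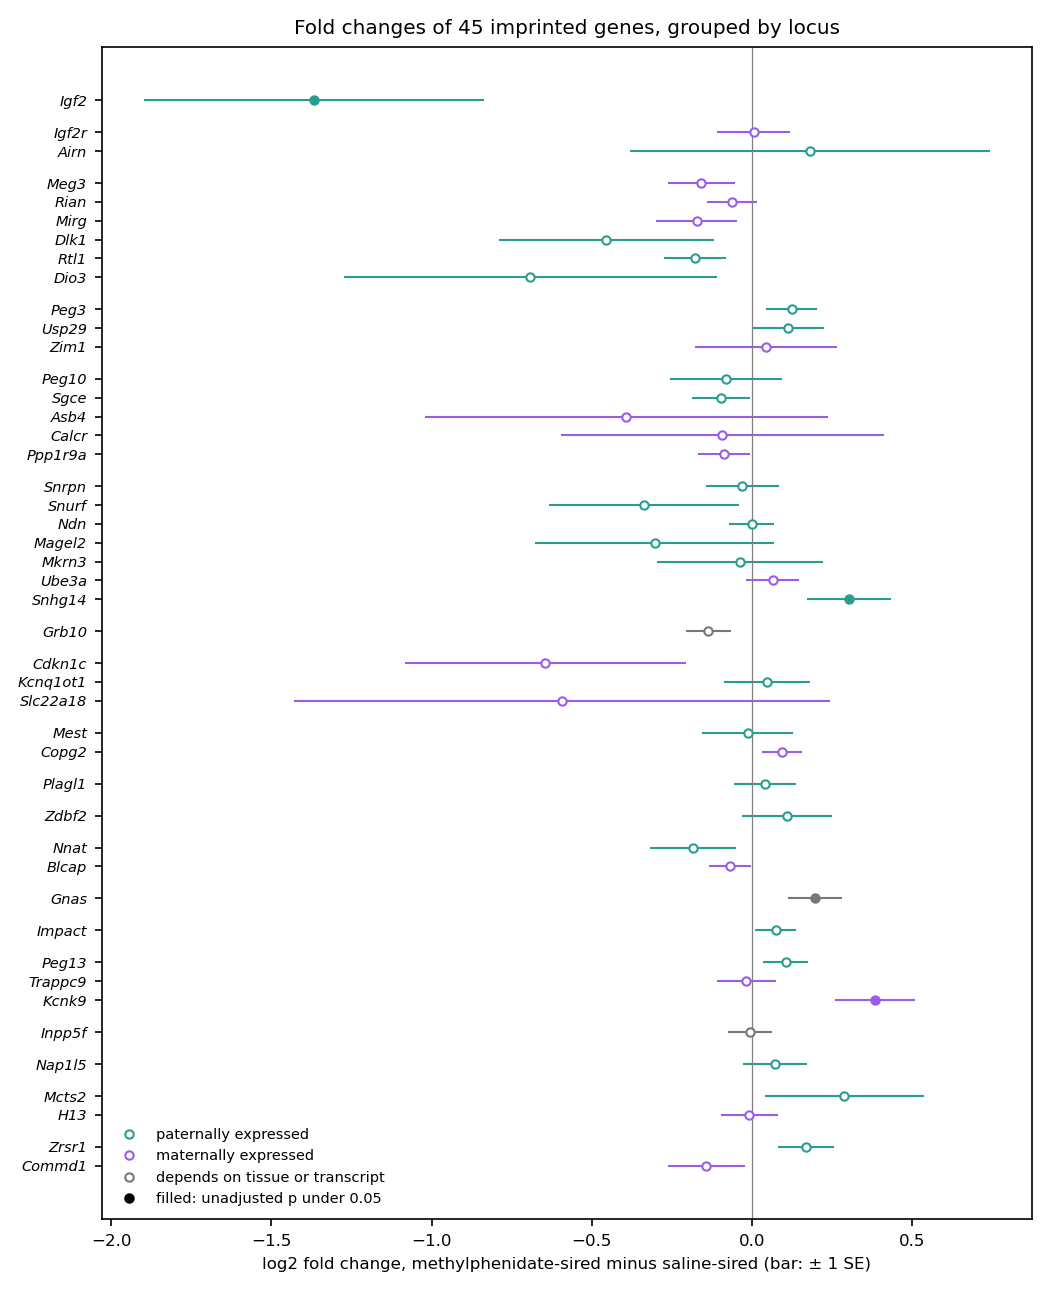
Log2 fold changes of the 45 tested imprinted genes (points) with 1 SE either side (bars), grouped by locus and coloured by expressed allele, with filled points at an unadjusted p under 0.05. Most points lie near 0, Igf2 is at -1.37, and all 6 members of the Dlk1-Dio3 group are left of 0.

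Kcnk9 had the lowest p of the members. It encodes the TASK-3 potassium leak channel, is maternally expressed in brain, and lies on chromosome 15 (72501873 to 72548614, mm10) beside Trappc9 and the intronic Peg13. Saline-sired libraries 3, 4 and 5 held Kcnk9 at 49.5, 45.9 and 65.3 CPM, and methylphenidate-sired libraries 2, 4 and 6 held it at 70.8, 66.1 and 72.6 CPM. The groups did not overlap, though saline-sired library 5 came within 1 CPM of the lowest methylphenidate-sired one. The log2 fold change was 0.38 (SE 0.12, n = 3 per group, edgeR unadjusted p = 0.0146, adjusted p = 0.470). Cortical excitatory markers moved with it. They summed to 767, 465 and 966 CPM in saline-sired and 1163, 1212 and 1337 CPM in methylphenidate-sired libraries, and their part in the Kcnk9 result was not tested.

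The values of its neighbours lay nearer 0, and the difference from Kcnk9 was not tested. Peg13, the paternally expressed RNA, was at 273, 292 and 275 CPM in saline-sired and 281, 299 and 323 in methylphenidate-sired libraries, which overlap (log2 fold change 0.10, SE 0.07, edgeR adjusted p = 0.686). Trappc9, a vesicle trafficking gene that hosts Peg13 in an intron on the same strand, was at 49.0 to 60.3 CPM with a log2 fold change of -0.02. Per kilobase, Peg13 was 7.60 to 10.7 times Trappc9 in the 6 libraries.

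Igf2 had the most negative fold change. It encodes insulin-like growth factor 2, a fetal growth factor that in the adult brain comes mainly from choroid plexus and meninges, where both alleles are known to be read. It lies on chromosome 7 (142650768 to 142666816). The saline-sired group held Igf2 at 133, 53.9 and 21.2 CPM, against 30.3, 24.2 and 26.3 CPM in the methylphenidate-sired group. The groups overlapped, with the highest and the lowest of all 6 values in saline-sired libraries. The log2 fold change was -1.37 (SE 0.53, edgeR unadjusted p = 0.0318, adjusted p = 0.498), and without saline-sired library 3 it was -0.49 (adjusted p = 0.816). Choroid plexus markers moved with it, at 3138, 892 and 221 CPM against 261, 366 and 360. Of that list 11 of 12 genes had counts in all 6 libraries. Ttr was its most abundant gene only in saline-sired library 3, with 1905 CPM, and fell to 9.88 in library 5. Enpp2 led the list in every other library, and gave 189 CPM of the sum in saline-sired library 5. Meningeal fibroblast markers, 12 of 12 with counts in every library, summed to 31.3 to 48.9 CPM in saline-sired and 28.3 to 42.6 CPM in methylphenidate-sired libraries. The part of either tissue in the Igf2 result was not tested.

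**Figure D3:**
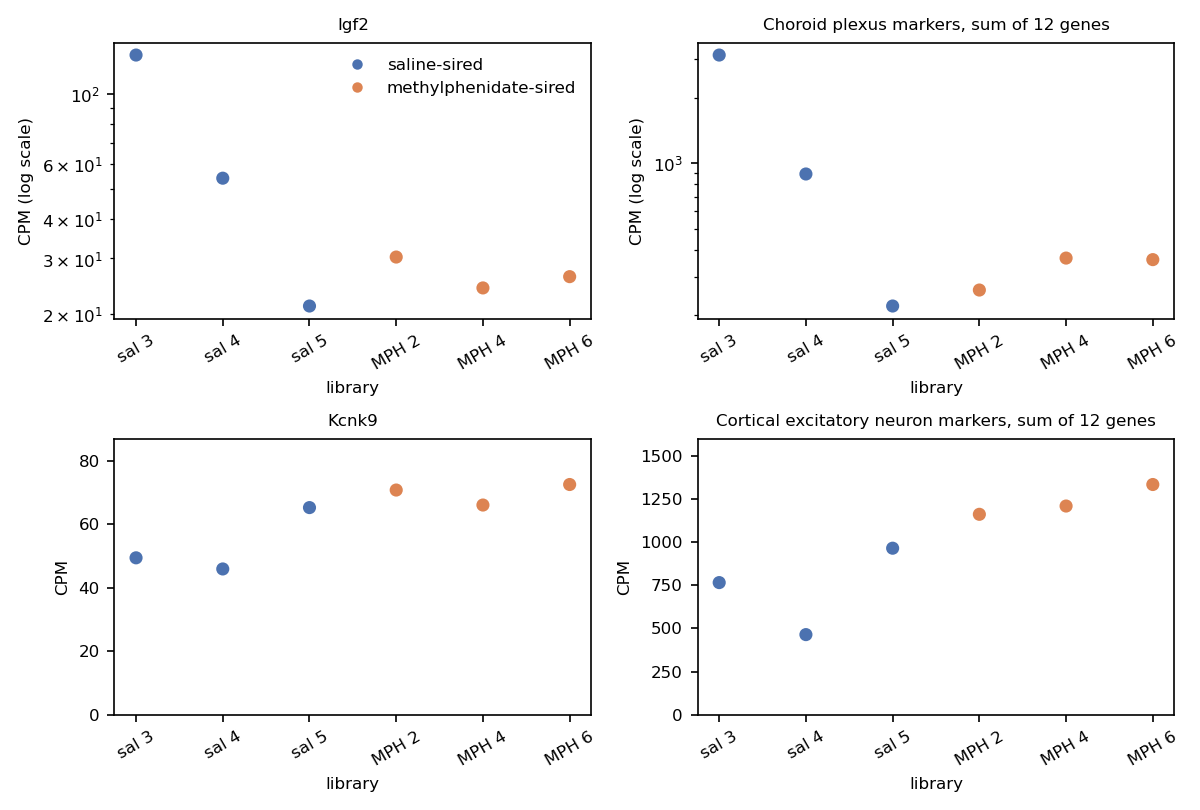
Igf2 beside summed choroid plexus markers (top, log axes) and Kcnk9 beside summed cortical excitatory neuron markers (bottom, linear axes from 0), in CPM per library, with saline-sired (sal) and methylphenidate-sired (MPH) libraries in different colours. Saline-sired library 3 is highest in both upper panels (133 and 3138 CPM), and saline-sired library 4 is lowest in both lower panels (45.9 and 465 CPM).

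Other growth genes of distal chromosome 7 and their partners followed. H19, the maternally expressed RNA next to Igf2, had 8 counts in 1 saline-sired library, 6 in 1 methylphenidate-sired library and 0 in the other 4. Cdkn1c, the cell cycle inhibitor p57, was at 9.94, 6.19 and 2.50 CPM in saline-sired and 2.86, 4.01 and 5.09 in methylphenidate-sired libraries. As with Igf2, its highest value was in saline-sired library 3 and its lowest in saline-sired library 5, so the groups overlapped (log2 fold change -0.65, SE 0.44, edgeR adjusted p = 0.696). Without library 3 its log2 fold change was -0.13. Kcnq1ot1, the paternally expressed RNA that silences the Kcnq1 domain, was at 16.5 to 22.6 CPM (0.05, SE 0.14), with a negative value if saline-sired library 4 (-0.04) or library 2 of the methylphenidate-sired group (-0.06) was left out. Phlda2, a placental growth inhibitor, had 0 counts in all 6 libraries, which allows up to 0.0755 to 0.0962 CPM (3 counts per library, counting error only), and Slc22a18 had at most 14 counts. Igf2r, which takes up and degrades IGF2 and is read from both alleles in neurons, was at 41.6 to 55.4 CPM with a log2 fold change of 0.0047 (SE 0.11). Its silencing RNA Airn had 5 to 13 counts per library.

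The region of Prader-Willi and Angelman syndromes on chromosome 7 held 7 members, of which 6 are paternally expressed. Snhg14, the long host transcript of small nucleolar RNAs whose far end runs antisense to Ube3a (59272737 to 60450177), was at 397, 279 and 341 CPM in saline-sired and 420, 370 and 465 in methylphenidate-sired libraries. The groups overlapped, since saline-sired library 3 exceeded methylphenidate-sired library 4. The log2 fold change was 0.30 (SE 0.13, edgeR unadjusted p = 0.0491, adjusted p = 0.550), and 0.18 without saline-sired library 4. Summed cortical excitatory markers were higher in the same group and lowest in saline-sired library 4 too, and their part was not tested. Ube3a, the ubiquitin ligase lost in Angelman syndrome and silenced on the paternal allele of neurons by that transcript, was at 128 to 159 CPM (0.06, SE 0.08), and -0.03 without saline-sired library 3. Annotated exons of Snhg14 and Ube3a overlap by 1803 bases on opposite strands. The sources used here do not give whether counting used strand, so reads there could be counted for either gene.

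Snrpn was at 217, 263 and 257 CPM in saline-sired and 218, 281 and 223 CPM in methylphenidate-sired libraries. Snurf, the upstream reading frame of the same transcript, was at 62.8, 131 and 117 CPM and at 65.8, 115 and 65.6 CPM. Both genes were high in saline-sired libraries 4 and 5 and in methylphenidate-sired library 4, and low in the other 3, so the pattern crossed the groups. Their log2 fold changes were -0.03 (SE 0.11) and -0.34 (SE 0.30). Because both can start at the window printed above and share 216 exon bases, their counts can be exchanged. Summed before the fit, they were at 280, 395 and 374 CPM in saline-sired and 284, 395 and 288 CPM in methylphenidate-sired libraries (-0.11, SE 0.16, edgeR adjusted p = 0.859). The sum kept the same 3 libraries high.

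**Figure D4:**
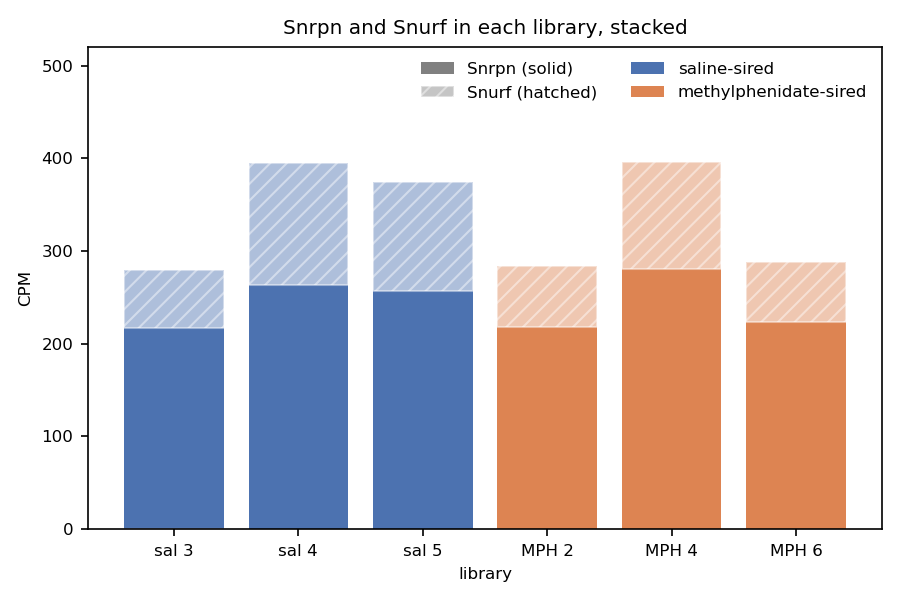
Snrpn (solid) and Snurf (hatched) stacked in CPM for each library, from 0, in saline-sired (sal) and methylphenidate-sired (MPH) libraries. The stacks reach 374 to 395 CPM in saline-sired libraries 4 and 5 and methylphenidate-sired library 4, and 280 to 288 CPM in the other 3.

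Necdin, a neuronal growth suppressor of the MAGE family, was among the steadiest members. Ndn was at 173, 157 and 153 CPM in saline-sired and 151, 169 and 162 CPM in methylphenidate-sired libraries, with the highest 1.15 times the lowest. Its log2 fold change was -0.0013 (SE 0.07). Magel2, a related gene active in the hypothalamus, was at 1.43 to 3.77 CPM, with its highest value in saline-sired library 4. That library also had the highest sum of hypothalamus markers, at 18.6 CPM against 8.80 to 13.1 in the others. Nkx2-1 was the largest part of it, at 7.32 CPM, and not every marker peaked there. Oxt, for example, was highest in saline-sired library 5, at 1.25 CPM. Of those 12 markers, Hcrt and Agrp were at 0 in all 6 libraries and only 4 had counts in every library. Their part in the Magel2 level was not tested. For Magel2 the log2 fold change was -0.30 (SE 0.37), or 0.20 with that library left out. Mkrn3, a ring finger gene that restrains puberty, was at 1.10 to 1.69 CPM.

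The Dlk1-Dio3 domain on chromosome 12 (from 109452485 to 110281097) held 6 members, and all 6 had negative log2 fold changes, from -0.69 to -0.06, with none past the test. They include both alleles. Dlk1, Rtl1 and Dio3 are protein genes of the paternal chromosome, and Meg3, Rian and Mirg are noncoding RNAs of the maternal one. Meg3 was at 2467, 2719 and 2965 CPM in saline-sired and 2771, 2146 and 2385 CPM in methylphenidate-sired libraries. These overlap (-0.16, SE 0.10, edgeR adjusted p = 0.686), and the value ranged from -0.25 without methylphenidate-sired library 2 to -0.06 with library 4 of that group left out. Rian, a snoRNA host, was at 463 to 548 CPM (-0.06, SE 0.08), and 0.0070 without saline-sired library 5. Mirg, a miRNA host, was at 14.2, 13.8 and 14.0 CPM in saline-sired and 14.3, 10.5 and 12.6 CPM in methylphenidate-sired libraries. In both groups Meg3 was 4.67 to 5.77 times Rian per kilobase.

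Rtl1, a retrotransposon-derived gene needed in placenta, was the domain's only member whose groups did not overlap. It was at 13.6, 13.9 and 14.5 CPM in saline-sired and 12.5, 12.9 and 11.7 CPM in methylphenidate-sired libraries. The log2 fold change was -0.18 (SE 0.10, edgeR unadjusted p = 0.101, adjusted p = 0.624). Summed medium spiny neuron markers were also lower in all 3 methylphenidate-sired libraries, and their part in this value was not tested. On the minus strand, the RefSeq span of Rtl1 (109564900 to 109604418) overlaps those of Meg3 and Rian on the plus strand. Whether counting used strand is not given, so reads from the opposite strand could be counted for Rtl1. Maternally expressed miRNAs lie opposite the Rtl1 exon and are known to cut its RNA. One mature arm of each of 5 such hairpins is printed here from RefSeq, with its seed (bases 2 to 8) in capitals, because each is complementary over its full length to the Rtl1 transcript.
miR-431-5p: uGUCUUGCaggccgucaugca
miR-433-3p: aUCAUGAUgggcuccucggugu
miR-127-3p: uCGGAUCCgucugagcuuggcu
miR-434-3p: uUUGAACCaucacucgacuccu
miR-136-5p: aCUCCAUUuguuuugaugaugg
All 10 mature arms of these hairpins matched in this way, which follows from their place opposite the exon, and no seed was shared among them. Their own rows held 0 to 3 counts per library. These rows do not measure mature miRNAs.

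Dlk1, a Notch-family ligand relative of fetal tissue, varied most among the domain's better covered genes. It was at 15.4, 8.76 and 10.8 CPM in saline-sired and 11.5, 9.58 and 4.41 CPM in methylphenidate-sired libraries. Methylphenidate-sired library 6 was the lowest, and the groups overlapped (-0.45, SE 0.34, edgeR adjusted p = 0.725). Without that library the log2 fold change was -0.14. Dio3, which inactivates thyroid hormone, had 3 to 22 counts per library, and the lowest was methylphenidate-sired library 4 (-0.69, SE 0.58). Its value was -0.26 without that library and -1.41 without library 2 of the same group.

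**Figure D5:**
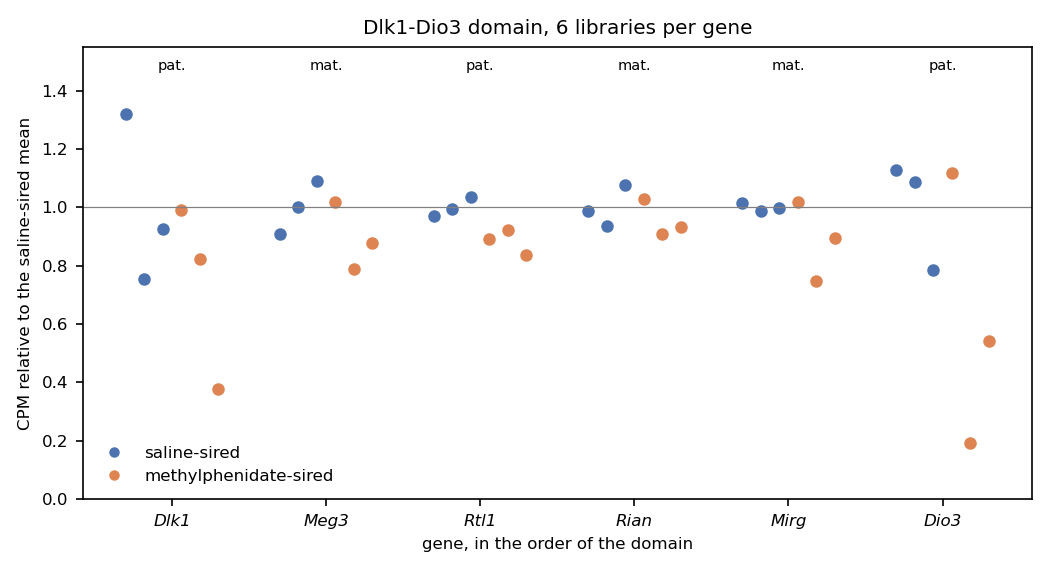
CPM of the 6 Dlk1-Dio3 members in each library, divided by the gene's saline-sired mean, on a linear axis from 0, with the expressed allele (pat., paternal, or mat., maternal) above. Rtl1 alone has all methylphenidate-sired points below all saline-sired ones, and Dlk1 and Dio3 scatter most.

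In the Peg3 domain of proximal chromosome 7, all 3 members had positive values that did not pass. Peg3, a zinc finger regulator linked to maternal behaviour, was at 362, 405 and 412 CPM in saline-sired and 390, 449 and 445 CPM in methylphenidate-sired libraries (log2 fold change 0.12, SE 0.08, edgeR adjusted p = 0.684). The groups overlapped through methylphenidate-sired library 2. Usp29, a deubiquitinase-like gene that starts in the same promoter on the other strand, was at 54.7 to 73.3 CPM (0.11, SE 0.11). Usp29 was at 0.02 without saline-sired library 3 and 0.25 without library 5 of that group, and Peg3 at 0.06 without the former and 0.20 if methylphenidate-sired library 2 was left out. From that shared start Peg3 was 7.27 to 9.60 times Usp29 per kilobase. Zim1, a maternally expressed zinc finger gene, was at 3.59 to 6.00 CPM (0.04, SE 0.22), and its value turned negative if saline-sired library 3 (-0.05) or 5 (-0.08) or library 6 of the other group (-0.05) was left out.

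Around Peg10 on chromosome 6, all 5 members had negative values. Ppp1r9a was the most abundant, at 723, 762 and 833 CPM in saline-sired and 776, 743 and 663 CPM in methylphenidate-sired libraries (-0.09, SE 0.08, edgeR adjusted p = 0.784). Peg10, a retrotransposon-derived gene, was at 44.6 to 76.3 CPM, and methylphenidate-sired libraries held both its highest and its lowest value (-0.08, SE 0.17). Sgce, the sarcoglycan gene mutated in myoclonus-dystonia, is transcribed the other way from beside Peg10. It was at 20.8 to 25.7 CPM (-0.10, SE 0.09), and Peg10 was 2.99 to 5.04 times Sgce per kilobase. Sgce was at -0.02 without methylphenidate-sired library 4, and Ppp1r9a at -0.02 without saline-sired library 5. Asb4 and Calcr (calcitonin receptor), both maternally expressed in brain, had at most 27 and 66 counts in a library. Without methylphenidate-sired library 6 the values of Peg10 and Calcr were positive (0.10 and 0.27), as they were without saline-sired library 3 (0.0023 and 0.19).

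Gnas encodes the stimulatory G protein alpha subunit, which couples many receptors to adenylyl cyclase. Its row merges transcripts of both parental alleles. Gnas (chromosome 2, 174284320 to 174346744) was at 572, 500 and 528 CPM in saline-sired and 551, 619 and 661 CPM in methylphenidate-sired libraries. The groups overlapped, because saline-sired library 3 exceeded methylphenidate-sired library 2. The log2 fold change was 0.20 (SE 0.08, edgeR unadjusted p = 0.0482, adjusted p = 0.546). Cortical markers moved the same way between the groups, and their part was not tested.

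Grb10, an adaptor that dampens insulin signalling, is read from the paternal allele in neurons and from the maternal one elsewhere. It was at 47.6, 45.7 and 45.7 CPM in saline-sired and 43.5, 43.8 and 39.3 CPM in methylphenidate-sired libraries, with no overlap. The log2 fold change was -0.14 (SE 0.07, edgeR unadjusted p = 0.0891, adjusted p = 0.610), and -0.09 without methylphenidate-sired library 6. As for Rtl1, the part of the lower medium spiny neuron sums was not tested. Inpp5f, an inositol phosphatase gene with a paternally expressed brain variant, was at 182 to 209 CPM with a log2 fold change of -0.0069 (SE 0.07). Impact, a regulator of translation under stress, was at 229, 241 and 256 CPM in saline-sired and 246, 266 and 253 CPM in methylphenidate-sired libraries (0.07, SE 0.06).

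Several paternally expressed members lie inside introns of another gene. Nap1l5, in Herc3, was at 200, 235 and 194 CPM in saline-sired and 194, 235 and 232 CPM in methylphenidate-sired libraries (log2 fold change 0.07, SE 0.10). Nnat, in Blcap, was at 92.6, 76.8 and 68.8 CPM and at 70.9, 79.6 and 59.2 CPM (-0.18, SE 0.13), with the highest value in saline-sired library 3. Its value was -0.06 without that library. Blcap, an apoptosis-linked gene, was at 57.2 to 66.0 CPM (-0.07, SE 0.07), and Nnat was 1.60 to 2.33 times Blcap per kilobase. Zrsr1, a splicing factor retrogene in Commd1, was at 55.9 to 72.8 CPM (0.17, SE 0.09), and 5.65 to 8.99 times Commd1. Commd1, a copper and endosome trafficking gene, had -0.14 (SE 0.12), and the exons of this pair overlap by 412 bases on opposite strands. Mcts2, a retrogene in H13, was at 2.48 to 4.98 CPM (0.29, SE 0.25), below its host, with 0.418 to 0.836 times the level per kilobase. H13, a signal peptide peptidase gene, had -0.0084. Nap1l5 was 7.48 to 14.7 times Herc3. With Peg13 in Trappc9, described above, 4 of 5 such genes exceeded their host in each library, Mcts2 being the exception. On leaving out 1 library Mcts2 ran from 0.09 (saline-sired 4) to 0.49 (saline-sired 5), Commd1 from -0.23 (methylphenidate-sired 6) to -0.03 (methylphenidate-sired 2) and Nap1l5 from 0.03 (saline-sired 5) to 0.17 (methylphenidate-sired 2).

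Copg2 and Mest meet tail to tail on chromosome 6 with 912 shared exon bases on opposite strands. Copg2, which encodes a coatomer subunit, was at 77.0, 71.0 and 74.9 CPM in saline-sired and 77.8, 82.6 and 77.2 CPM in methylphenidate-sired libraries. The groups did not overlap, by a margin of under 1 CPM (log2 fold change 0.09, SE 0.06, edgeR adjusted p = 0.691). Without saline-sired library 4 the log2 fold change was 0.06. Mest, a hydrolase-like gene of mesoderm and fat, was at 21.1 to 31.8 CPM, with both ends in the saline-sired group (-0.01, SE 0.14). Plagl1, a zinc finger regulator of other imprinted genes, was at 17.9 to 21.6 CPM (0.04, SE 0.10). Zdbf2, a feeding-linked gene of the hypothalamus, was at 48.5 to 73.0 CPM, with its highest value in methylphenidate-sired library 4 (0.11, SE 0.14, and -0.06 without that library).

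The members differed widely in their spread over the 6 libraries. The highest of the 6 values was 6.26 times the lowest for Igf2, 5.90 for Dio3, 5.30 for Asb4, 3.97 for Cdkn1c, 3.69 for Calcr, 3.48 for Dlk1 and 3.23 for Airn. It was 2.63 times for Magel2, 2.09 for Snurf and 2.01 for Mcts2, and below 2 times for the other tested members except Slc22a18, which was at 0 in 1 library. Dio3, Asb4 and Airn had at most 27 counts in a library. For Ndn, Inpp5f, Blcap, Impact and Copg2 it was 1.15- to 1.16-fold.

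Genes that keep imprints, other imprinted genes and insulin-like growth factor (IGF) signalling were read from the same fit. Of 19 imprint maintenance genes 17 were tested and 0 passed (8 positive, 9 negative, median -0.03). The groups did not overlap in 3 of those tested (17.6%, against 14.8% of all genes). At an unadjusted p under 0.05 there was 1, or 5.88%, against 9.02% of all genes. That gene was Mbd3, a subunit of a nucleosome remodelling complex, at -0.21 (SE 0.08, edgeR adjusted p = 0.489). Uhrf1, which brings the maintenance methyltransferase to replicated DNA, was at -0.77 (SE 0.36). Zfp57 had at most 128 counts in a library (-0.25, SE 0.26).

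Among 22 further imprinted genes 17 were tested and 0 passed, with 6 positive and 11 negative (median -0.04). At an unadjusted p under 0.05 there was 1 of them (5.88%, against 9.02% of all genes). In 2 of them the groups did not overlap (11.8%, against 14.8% of all genes). Peg12, a paternally expressed intronless gene of the Prader-Willi region, had 18, 15 and 17 counts in saline-sired and 4, 10 and 2 counts in methylphenidate-sired libraries. The groups did not overlap, at very low counts (-1.56, SE 0.58, edgeR unadjusted p = 0.0272, adjusted p = 0.491). Pon3, a lactonase gene, was at 8.36, 4.65 and 3.27 CPM in saline-sired and 3.38, 3.60 and 3.05 CPM in methylphenidate-sired libraries (-0.70, SE 0.32). As for Igf2, saline-sired library 3 was highest, and the part of choroid plexus RNA was not tested. In the IGF list, 12 of 15 were tested, 8 were positive and 0 passed (median 0.09). There were 2 at an unadjusted p under 0.05 (16.7%, against 9.02% of all genes), and 1 whose groups did not overlap (8.33%, against 14.8%). Igfbp6 and Igfbp3, which bind the growth factors outside cells, had 0.49 (SE 0.17, edgeR adjusted p = 0.470) and 0.32 (SE 0.13, edgeR adjusted p = 0.526). The receptor genes Igf1r and Insr were at 0.04 and 0.01.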

How the data were processed

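Read counts from 6 striatum libraries were used. Per the submitters' processing notes, bcl2fastq 2.20.0, Trimmomatic, HISAT2 2.1.0, StringTie 2.1.3b and mm10 were used. Neither settings, strand use nor the handling of multiply matching reads is stated. The authors deposited whole-number counts for 45777 RefSeq genes, and it is not stated if these were estimated and rounded. Another 12 columns, which hold length-scaled values (FPKM and TPM) of the same libraries, were not used. A column name shows only its group, and sex was not read from the counts, so no sex term was fitted.

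Counts were tested with edgeR 4.0.16 (R 4.3.3), with TMM scaling, filterByExpr over the groups (17874 genes), a quasi-likelihood F test and Benjamini-Hochberg adjustment at 0.05. SE was taken from log2 fold change and F. CPM uses TMM-scaled library sizes. Alternatives were DESeq2 1.42.0, limma-voom (limma 3.58.1), other size factors, no filter, each library left out, and Snrpn summed with Snurf. The edgeR fit was tested on simulated data. Coordinates came from RefSeq GRCm38.p6, the assembly of mm10 (45679 of 45777 IDs matched).

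The members and lists were chosen with earlier results of these data known. Library values are given for members at an unadjusted p under 0.05, with groups that do not overlap, or among the 10 highest per kilobase. Other members have ranges. Of each list the 2 of lowest p are named. Snurf, Cdkn1c, Mirg and Dlk1 in full, and Zfp57, Igf1r and Insr, were added after their values were seen, and Snurf was then left out of the order per kilobase.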

Additional observations from a re-analysis of the deposited data

How the results depend on the processing

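No imprinted member passed under any alternative run, and the 45 members gave 493 fold changes over all alternatives, of which 44 had the opposite sign, in 19 members. DESeq2 called 180 genes against 4. Leaving out 1 library gave 1 to 4 genes past the test, 1 to 4 members at an unadjusted p under 0.05 (with 5.82% to 12.9% of all genes), and medians of -0.028 to 0.050 for paternally and -0.10 to -0.032 for maternally expressed members. The genes past the test numbered 1, and the members at an unadjusted p under 0.05 also 1, without methylphenidate-sired library 6. Outside leaving out a library, 3 members changed sign, each with a value near 0. Ndn was at 0.0015 with DESeq2 size factors in edgeR, 0.0014 with DESeq2 and 0.010 without the filter, and without the filter Inpp5f was at 0.0040 and H13 at 0.0029. Ranges on leaving out a library that crossed 0 were -0.10 to 0.096 (Igf2r), -0.18 to 0.46 (Airn), -0.11 to 0.0070 (Rian), -0.081 to 0.30 (Zim1), -0.26 to 0.10 (Peg10), -0.14 to 0.050 (Snrpn), -0.028 to 0.059 (Ndn), -0.52 to 0.20 (Magel2), -0.16 to 0.14 (Mkrn3), -0.027 to 0.14 (Ube3a), -0.062 to 0.16 (Kcnq1ot1), -1.52 to 0.0022 (Slc22a18), -0.16 to 0.12 (Mest), -0.041 to 0.10 (Plagl1), -0.060 to 0.23 (Zdbf2), -0.067 to 0.085 (Trappc9), -0.035 to 0.057 (Inpp5f), -0.59 to 0.27 (Calcr) and -0.073 to 0.068 (H13). Ranges that moved by over 1.5 times without crossing 0 were -1.78 to -0.49 (Igf2), -0.25 to -0.063 (Meg3), -0.27 to -0.051 (Mirg), -0.72 to -0.14 (Dlk1), -1.41 to -0.26 (Dio3), 0.064 to 0.20 (Peg3), 0.020 to 0.25 (Usp29), -0.12 to -0.021 (Sgce), -0.65 to -0.13 (Snurf), 0.18 to 0.43 (Snhg14), -0.15 to -0.087 (Grb10), -1.004 to -0.13 (Cdkn1c), 0.061 to 0.12 (Copg2), -0.27 to -0.061 (Nnat), -0.087 to -0.019 (Blcap), 0.032 to 0.13 (Impact), 0.053 to 0.17 (Peg13), -0.82 to -0.076 (Asb4), -0.14 to -0.018 (Ppp1r9a), 0.032 to 0.17 (Nap1l5), 0.094 to 0.49 (Mcts2), 0.11 to 0.24 (Zrsr1) and -0.23 to -0.034 (Commd1). The cause of these shifts was not tested. No paired analysis was possible because the numbers in the column names are not those of the labels and the groups share only the number 4. With 3 animals per group, members with few counts (Airn, Asb4, Dio3 and Slc22a18) have wide errors.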

Other observations

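Between Dlk1 and Dio3 RefSeq places 58 miRNA hairpin genes, all of them in the table. Their rows held a median of 2 counts and at most 25 in any library, and 3 passed the count filter. The source genes of the intronic retrogenes stood beside them as follows. Per kilobase, Mcts2 was 0.162 to 0.341 times Mcts1, its source on another chromosome, and Zrsr1 was 2.40 to 3.09 times Zrsr2. Of 5 relatives of the retrogenes, 4 had positive log2 fold changes and 0 passed. Nap1l3 and Nap1l2, neuronal relatives of Nap1l5, had 0.23 (SE 0.08, edgeR adjusted p = 0.470) and 0.16 (SE 0.07, edgeR adjusted p = 0.569), with no overlap between the groups. These 2 are 40% of the 5, a share that rests on few genes, against 14.8% of all genes. The sources used here do not state how reads that match both a retrogene and its source were assigned.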
